A study of Homo sapiens with 10 samples.

Results

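The NF-kB kinases and the receptors upstream of them were followed in 786-O, a cell line from a human clear-cell kidney cancer without working VHL. The set was a list of 10 genes, chosen by name with earlier results of these data known. It held the kinases CHUK, IKBKB, IKBKE, TBK1 and MAP3K14, the kinase scaffold IKBKG, and the receptors TNFRSF1A and IL1R1. RIPK1 and TRAF2, which act as adaptors at these receptors, made up the rest. A probe set with a single gene name was found for 8 of the 10, each with 1 probe set, and none was found for RIPK1 and TRAF2, which were not analysed here. The 8 stood among 22426 named genes. The cells carried lentiviral short hairpin RNAs and were selected with puromycin at 2 ug/ml. One table of 6 arrays held a scrambled control, ZHX2 shRNA 44 and ZHX2 shRNA 45, with 2 arrays each, where ZHX2 is a zinc-finger and homeobox transcription factor. A second table of 4 arrays held a control shRNA and a shRNA against p65 (the RELA protein, an NF-kB subunit), again with 2 arrays each. All groups were the same cell line, and p65 was targeted with 1 hairpin only.

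NF-kB factors are held in the cytoplasm by inhibitor proteins until a kinase complex phosphorylates those inhibitors. In the canonical pathway, TNF receptor 1 and the interleukin-1 receptor recruit adaptors such as RIPK1 and TRAF2, which lead to a complex of IKK-alpha (CHUK), IKK-beta (IKBKB) and the regulatory scaffold NEMO (IKBKG). In the noncanonical pathway the kinase NIK (MAP3K14) activates IKK-alpha, which leads to processing of the precursor of p52. The IKK-related kinases TBK1 and IKK-epsilon (IKBKE) phosphorylate interferon regulatory factors and some NF-kB components, and IKBKE is itself inducible by inflammatory signals.

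The promoters of the 4 genes that passed the test after ZHX2 knockdown are shown because CHUK and MAP3K14 rose together while IKBKE and IL1R1 fell. Each is the 250 bases before a RefSeq start on GRCh38.p14, written 5′ to 3′ on the strand of the gene, and capitals mark motif matches.
CHUK, chr10:100229597-100229846, minus strand: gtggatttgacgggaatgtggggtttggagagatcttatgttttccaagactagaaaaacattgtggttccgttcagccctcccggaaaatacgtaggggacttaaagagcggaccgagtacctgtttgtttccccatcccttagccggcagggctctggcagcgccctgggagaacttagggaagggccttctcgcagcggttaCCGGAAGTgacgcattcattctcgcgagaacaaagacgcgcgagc
MAP3K14, chr17:45317021-45317270, minus strand: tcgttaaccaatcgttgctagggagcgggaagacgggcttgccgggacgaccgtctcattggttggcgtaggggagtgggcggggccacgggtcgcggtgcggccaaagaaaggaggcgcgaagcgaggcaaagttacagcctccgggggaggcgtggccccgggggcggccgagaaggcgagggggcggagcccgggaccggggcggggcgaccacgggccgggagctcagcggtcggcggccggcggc
IKBKE, chr1:206470226-206470475, plus strand: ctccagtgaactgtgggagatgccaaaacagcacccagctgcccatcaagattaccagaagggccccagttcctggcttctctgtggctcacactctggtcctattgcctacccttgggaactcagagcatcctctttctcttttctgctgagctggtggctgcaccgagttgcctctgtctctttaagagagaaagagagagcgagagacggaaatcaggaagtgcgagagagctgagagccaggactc
IL1R1, chr2:102142496-102142745, plus strand: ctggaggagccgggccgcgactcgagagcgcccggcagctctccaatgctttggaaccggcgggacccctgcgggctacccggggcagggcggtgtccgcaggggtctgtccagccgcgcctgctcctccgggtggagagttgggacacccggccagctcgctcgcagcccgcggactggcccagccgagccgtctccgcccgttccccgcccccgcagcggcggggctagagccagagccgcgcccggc
IL1R1 has 4 starts in the table, and the window of the most downstream one is printed. Promoter windows were held for 9 of the 10 listed genes, 17 windows in all, and both strands were searched for 4 motifs chosen after the sequences had been read. The ETS motif CCGGAAGT was in the CHUK window, from 45 to 38 bases before the start (positions -45 to -38), and in 3.42% of 35116 promoter windows of the same length. The kB consensus was in none of the 17 windows and in 9.96% of all windows. The AP-1 motif TGANTCA (6.57% of all windows) was in 1 IKBKG window, and the interferon-stimulated response element (3.02%) was in 2 overlapping RIPK1 windows, which share the match. A second ETS match lay in another IKBKG window. These matches describe letters only, and no binding was measured.

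The deposited values were log2 signals with array medians from 6.15 to 6.22 in the ZHX2 table and from 1.87 to 1.89 in the p65 table, so no level was compared between tables. Separate cultures are not stated for the replicates. A p-value here therefore measures only the spread between the samples, possibly technical, and precision is limited by how few arrays there are. In bulk RNA, fewer cells of a kind and less RNA per cell cannot be told apart. Of 7 renal carcinoma markers, CDH6 (-1.92) and PAX8 (-0.38) fell and KRT18 rose by 0.62 with both ZHX2 hairpins averaged. Mean signals of the 7 ran from 7.58 to 12.25 in the ZHX2 table and from 2.23 to 10.26 in the p65 table, with no detection measure. The neuronal marker NEFL lay within these ranges, at 11.14 and 9.81, and the fibroblast marker LUM was at 6.69 and 5.61. Among markers of other cell types limma called 0 of 5 leukocyte genes (1 at an unadjusted p under 0.05, 0 with an intensity trend), 0 of 4 endothelial genes (0 and 0), 1 of 3 fibroblast genes (LUM at -0.95) and 1 of 4 neuronal genes (NEFL at -1.16), and their part in the results was not tested. With the trend 2 of the 4 neuronal genes passed, and hairpin 44 alone also lowered 2 of them, NEFL and SNAP25 (-0.47, limma adjusted p = 0.0364). Of all 22426 genes limma called 18.3% over both hairpins, 26.2% with the trend and 7.65% with hairpin 44 alone. Over both hairpins 7218 of them were at an unadjusted p under 0.05. With p65 shRNA limma called none of these 23 markers, and 0% of all genes. At an unadjusted p under 0.05 were EPAS1 (-0.85), which passed with the trend (limma adjusted p = 0.0445), and SNAP25 (-0.96), which did not (0.081). With p65 shRNA 14.3% of all genes were at an unadjusted p under 0.05, and 3.86% passed with the trend.

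The targeted genes were checked first. ZHX2 signal was 10.58 and 10.43 (scrambled), 9.35 and 9.38 (hairpin 44) and 8.93 and 9.03 (hairpin 45), so every hairpin array lay below the controls (change -1.33, limma adjusted p = 0.00105). RELA was 7.64 and 7.67 with the control shRNA and 5.04 and 5.28 with the p65 shRNA, 17.7% of the control signal (change -2.50, SE 0.178, limma adjusted p = 0.0733, and 0.00132 with an intensity trend). In the ZHX2 table RELA was higher on all 4 hairpin arrays, at 9.64 to 9.82 against 9.34 and 9.23 (change 0.44, limma adjusted p = 0.0112).

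After ZHX2 knockdown the kinases and receptors split. CHUK and MAP3K14, which act together in the noncanonical pathway, rose, while the inducible kinase IKBKE and the receptor IL1R1 fell. IKBKB, IKBKG, TBK1 and TNFRSF1A did not pass the test. With both hairpins averaged, 4 of the 8 measured genes passed limma at an adjusted p under 0.05, against 18.3% of all 22426 genes. The list was chosen with earlier results of these data known, so such shares are set side by side only. Of the 4, 2 rose (11.9% of all genes rose) and 2 fell (6.41% of all genes fell). With an intensity trend in limma's moderation 5 of the 8 passed, against 26.2% of all genes. For hairpin 44 and hairpin 45 taken singly the same 4 genes passed, against 7.65% and 20.1% of all genes. The median log2 change of the 8 was 0.04, and that of all genes was -0.0042. The arrays of the hairpins and of scrambled cells did not overlap for 6 of the 8 genes, as for 38.3% of all genes. Over all genes the rises made up 64.9% of the calls, 53.2% after quantile normalization and 73.0% after median centring. The 4 called genes kept their sign under all 15 alternatives to the fit, but only median centring and quantile normalization could have turned it. The other alternatives reused the same estimate or left out a single array, where all hairpin arrays lay beyond both controls.

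**Figure D1:**
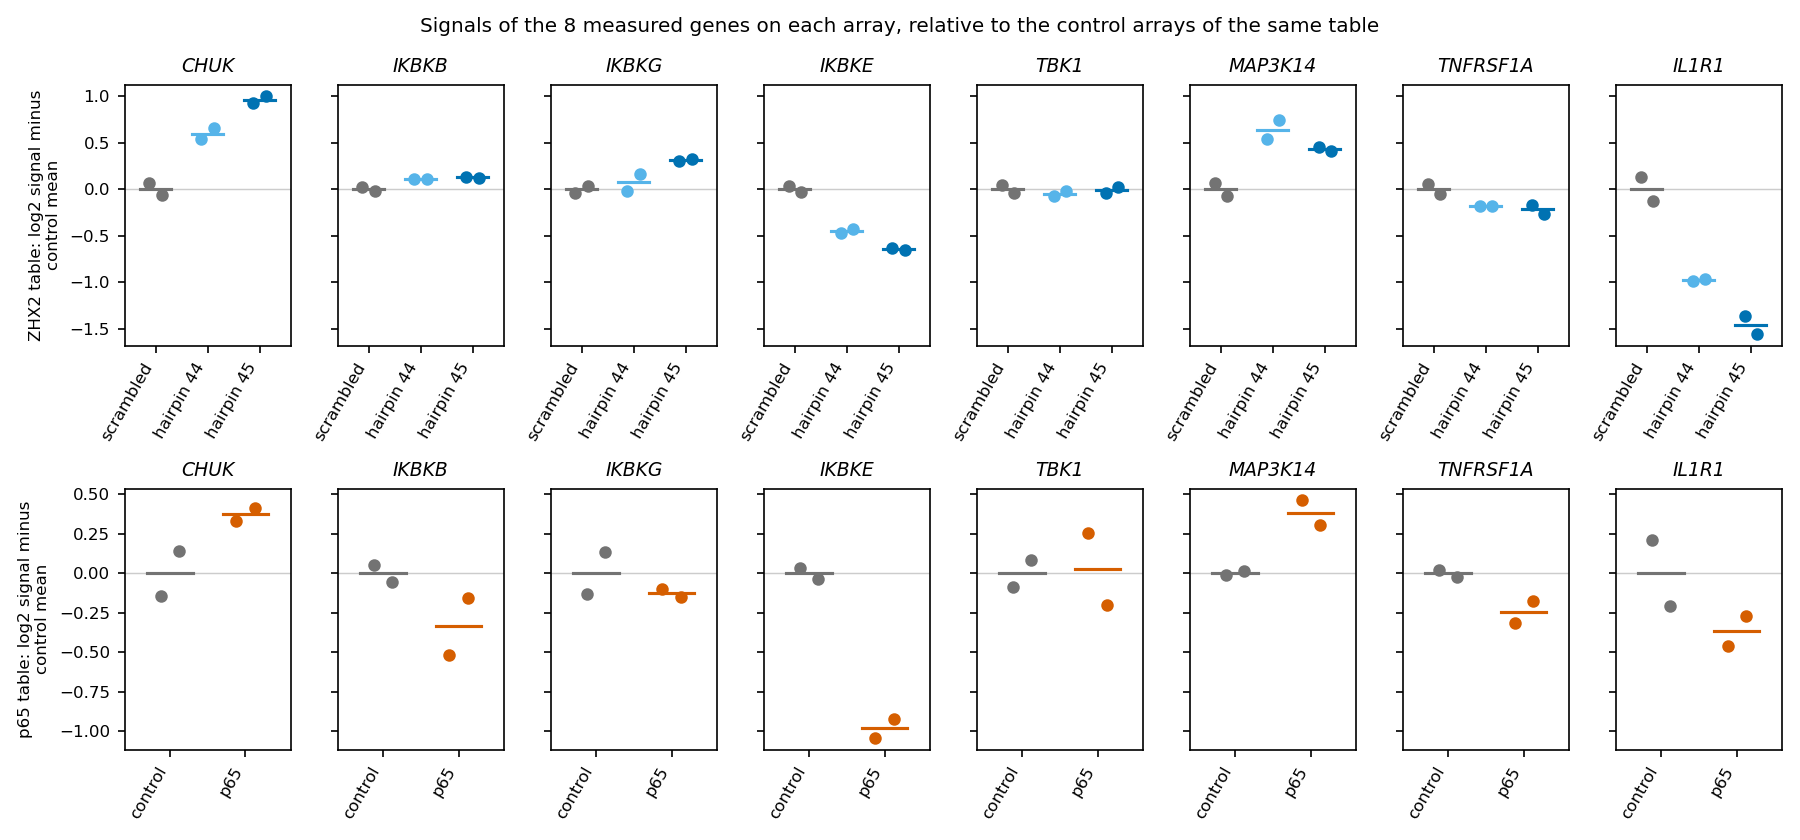
Log2 signal of each of the 8 measured genes on every array, minus the mean of the control arrays of its own table (vertical axis, log2 units), by group. Points are single arrays and lines are group means of 2 arrays. In the upper row (ZHX2 table) CHUK and MAP3K14 lie above and IKBKE and IL1R1 below their scrambled arrays with either hairpin. In the lower row (p65 table) IKBKE has the largest difference, at -0.98.

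CHUK encodes IKK-alpha, the catalytic subunit shared by the canonical and noncanonical pathways. Its probe set, 16717469, gave signals of 7.97 and 7.85 (scrambled), 8.44 and 8.57 (hairpin 44) and 8.83 and 8.91 (hairpin 45). All 4 hairpin arrays were above both controls, and both hairpin 45 arrays were above both hairpin 44 arrays. The group means were 7.91 ± 0.0877 (SD, n = 2), 8.51 ± 0.0864 and 8.87 ± 0.0522. Averaged over the hairpins, CHUK rose by 0.78 (SE 0.0764, limma adjusted p = 0.00332), or 1.72-fold, and ranked 217 among the rises of 22426 genes. It was 0.60 with hairpin 44 (limma adjusted p = 0.0202) and 0.96 with hairpin 45 (limma adjusted p = 0.00268). The hairpin 44 call was lost when any single array was left out (limma adjusted p from 0.0506 to 0.126, change from 0.53 to 0.66), and the call over both hairpins was kept in all 6 such fits.

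MAP3K14 encodes NIK, the kinase that activates IKK-alpha in the noncanonical pathway. Signals of the probe set 16845876 were 8.38 and 8.24 (scrambled), 8.85 and 9.05 (hairpin 44) and 8.77 and 8.72 (hairpin 45). All 4 hairpin arrays lay above the controls, with those of hairpin 44 highest. The means were 8.31 ± 0.0995 (SD, n = 2), 8.95 ± 0.144 and 8.74 ± 0.036. Averaged over the hairpins, MAP3K14 rose by 0.53 (SE 0.0872, limma adjusted p = 0.0122), or 1.45-fold. Without scrambled replicate 2 that call was lost (limma adjusted p = 0.071, change 0.46). Singly, hairpin 44 gave 0.64 (limma adjusted p = 0.0237) and hairpin 45 gave 0.43 (limma adjusted p = 0.033). The first call was lost with any single array left out (adjusted p from 0.0543 to 0.128) and the second in 4 of 6 such fits, those without an array of scrambled cells or of hairpin 45 (adjusted p up to 0.147). An antisense transcript, MAP3K14-AS1, lies at the same locus, has a probe set of its own and was picked after its values were seen. Its change was -0.17 (SE 0.0795, limma adjusted p = 0.208), with a sign opposite to that of MAP3K14.

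IKBKE encodes IKK-epsilon. Its signals, from the probe set 16676592, were 8.40 and 8.34 (scrambled), 7.89 and 7.94 (hairpin 44) and 7.74 and 7.71 (hairpin 45). The groups did not overlap, and hairpin 45 gave the lowest values. The means were 8.37 ± 0.0423 (SD, n = 2), 7.92 ± 0.0372 and 7.73 ± 0.0181. Over both hairpins IKBKE fell by 0.54 log2 units (SE 0.0634, limma adjusted p = 0.00502), to 68.6% of the scrambled signal with an interval from 61.6% to 76.4%. The change was -0.45 with hairpin 44 (limma adjusted p = 0.0252) and -0.64 with hairpin 45 (limma adjusted p = 0.00455). Leaving out any single array ended the hairpin 44 call (limma adjusted p from 0.0639 to 0.152, change from -0.48 to -0.42) and left the call over both hairpins.

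IL1R1, the signalling receptor for interleukin-1, had the largest change of the 8. Signals of the probe set 16883647 were 9.98 and 9.71 (scrambled), 8.87 and 8.88 (hairpin 44) and 8.48 and 8.29 (hairpin 45). Every hairpin array was well below the lower control array, and the hairpin 45 arrays were lowest. The means were 9.85 ± 0.187 (SD, n = 2), 8.87 ± 0.00972 and 8.39 ± 0.133. Over both hairpins IL1R1 fell by 1.22 (SE 0.101, limma adjusted p = 0.00231), to 43.0% of the scrambled signal, and ranked 66 among the falls of all genes. The change was -0.97 with hairpin 44 (limma adjusted p = 0.0129) and -1.46 with hairpin 45 (limma adjusted p = 0.0021). The hairpin 44 call was lost without scrambled replicate 2 or either hairpin 44 array (limma adjusted p of 0.0523, 0.1 and 0.092).

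TNFRSF1A encodes TNF receptor 1, the main receptor for soluble TNF. Its signals were 10.36 and 10.26 (scrambled), 10.13 and 10.13 (hairpin 44) and 10.14 and 10.05 (hairpin 45). All hairpin arrays lay below the controls, but by little, and the change of -0.20 (SE 0.0689, 95% interval from -0.37 to -0.03) did not pass (limma adjusted p = 0.104). It passed with an intensity trend in limma's moderation (adjusted p = 0.00882) and after quantile normalization (change -0.32, limma adjusted p = 0.0213).

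IKBKB, the kinase that phosphorylates IkB-alpha in the canonical pathway, was nearly level. Its signals were 8.03 and 7.99 (scrambled), 8.12 and 8.12 (hairpin 44) and 8.14 and 8.14 (hairpin 45). The hairpin arrays all lay above both controls, but by little. Averaged over the hairpins, IKBKB differed by 0.12 (SE 0.0606, 95% interval from -0.03 to 0.27, limma adjusted p = 0.249). IKBKG, the scaffold that links the kinases to ubiquitin chains, was at 7.94 and 8.02 (scrambled), 7.97 and 8.14 (hairpin 44) and 8.28 and 8.30 (hairpin 45). Both hairpin 45 arrays and 1 of the 2 hairpin 44 arrays were above both controls, and the other hairpin 44 array lay between them. Its change was 0.19 over both hairpins (SE 0.0772, limma adjusted p = 0.153). Hairpin 45 alone gave 0.31 (SE 0.0891, limma adjusted p = 0.0613). The hairpin 45 change passed with an intensity trend (limma adjusted p = 0.0169, a rule that called 27.9% of all genes), after median centring (0.0353) and without dim probe sets (0.028). Median centring called 4594 of 22426 genes with hairpin 45, and the fit without dim probe sets called 5610 of 16424. RefSeq lists a pseudogene copy, IKBKGP1, on the same chromosome, so the source of the IKBKG signal is uncertain. TBK1, the constitutive relative of IKBKE, was at 8.94 and 8.86 (scrambled), 8.83 and 8.88 (hairpin 44) and 8.85 and 8.92 (hairpin 45). Its groups overlapped, and its change was -0.03 (SE 0.0664, 95% interval from -0.19 to 0.13, limma adjusted p = 0.813), with a sign that turned after median centring (0.014).

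**Figure D2:**
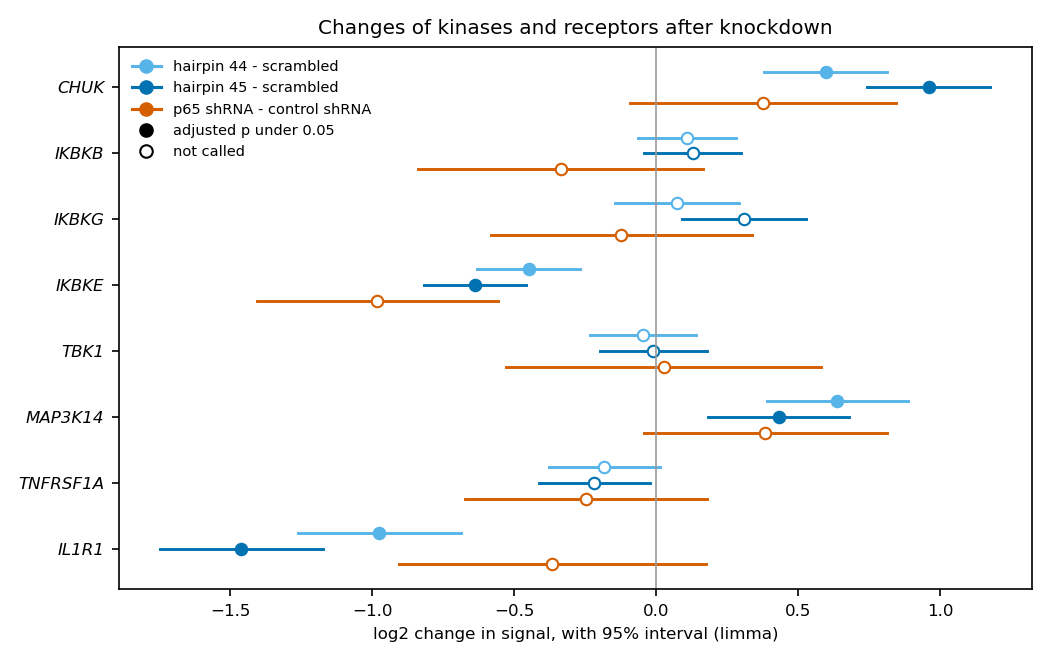
Log2 change in signal (horizontal axis) of each gene with hairpin 44, with hairpin 45 and with p65 shRNA, each against its own control, with 95% intervals from limma. Filled points passed an adjusted p under 0.05 and open points did not. CHUK, MAP3K14, IKBKE and IL1R1 are filled for both ZHX2 hairpins, and all p65 points are open.

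Both hairpins shared the scrambled arrays, so their changes are set side by side and the hairpins were compared directly. Against hairpin 44, hairpin 45 gave higher CHUK by 0.36 (SE 0.0882, limma adjusted p = 0.178), lower IL1R1 by -0.49 (SE 0.117, limma adjusted p = 0.176) and lower IKBKE by -0.19 (SE 0.0732, limma adjusted p = 0.311). MAP3K14 was lower with hairpin 45, by -0.21 (SE 0.101, limma adjusted p = 0.405). By limma 0 of the 8 genes passed in this comparison (4 at an unadjusted p under 0.05, against 15.1% of all genes), against 0.397% of all genes called. With an intensity trend CHUK (adjusted p = 0.02) and IL1R1 (adjusted p = 0.00941) passed, against 6.55% of all genes. Hairpin 45 also left less ZHX2 signal than hairpin 44, by -0.39 (SE 0.0862, limma adjusted p = 0.152).

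The related kinases were then compared within each array by the difference of their log2 signals. These pairs were chosen after the data were seen, and their mean shifts restate the single-gene changes without adding support. CHUK minus IKBKB, set to 0 on average over the scrambled arrays, was 0.04 and -0.04 there, 0.43 and 0.55 (hairpin 44) and 0.79 and 0.87 (hairpin 45). All 4 hairpin arrays were above both controls, with a mean shift of 0.66. IKBKE minus TBK1 was -0.0095 and 0.0095 (scrambled), -0.41 and -0.40 (hairpin 44) and -0.58 and -0.68 (hairpin 45), a mean shift of -0.52. Here too the groups did not overlap. In the p65 table CHUK minus IKBKB was 0.85 and 0.57 with p65 shRNA against -0.20 and 0.20, a shift of 0.71. IKBKE minus TBK1 was -1.30 and -0.72 against 0.12 and -0.12, a shift of -1.01. With 4 arrays against 2 the two-sided exact permutation test gave p = 0.133 for each pair, the smallest it allows, and with 2 against 2 it gave p = 0.333, also the smallest. Adjusted over the 4 comparisons the exact p-values were 0.267 and 0.333, so none could reach 0.05.

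**Figure D3:**
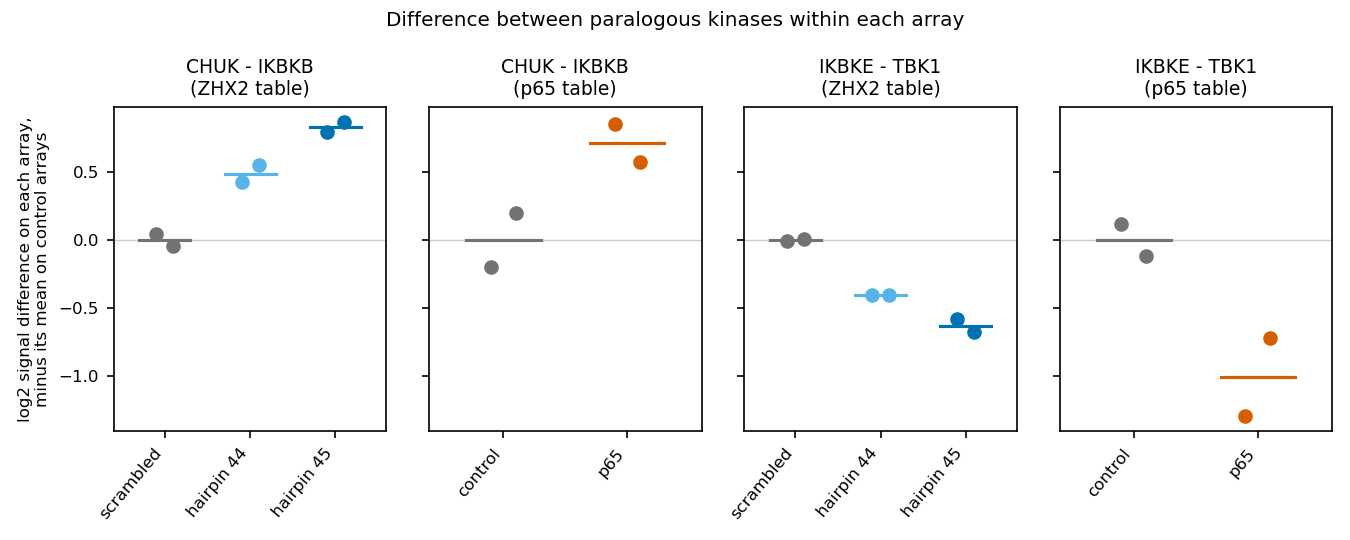
Difference in log2 signal between CHUK and IKBKB and between IKBKE and TBK1 on each array (vertical axis, log2 units), minus its mean over the control arrays of the table. Points are single arrays and lines are group means. The CHUK-IKBKB difference is higher on all knockdown arrays of both tables, by 0.66 and 0.71 on average, and the IKBKE-TBK1 difference is lower, by -0.52 and -1.01.

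Knockdown of p65 asked which of these genes depend on the NF-kB subunit RELA. IKBKE had the largest difference, and the other 7 genes lay between -0.37 and 0.38 log2 units. IKBKE signals were 5.42 and 5.35 with the control shRNA and 4.34 and 4.46 with p65 shRNA, so the gap between the groups was several times the spread within them. The difference was -0.98 (SE 0.169, 95% interval from -1.41 to -0.56), to 50.6% of the control signal, with a limma adjusted p of 0.113. With an intensity trend in the moderation it did pass (limma adjusted p = 0.0316). By limma 0 of the 8 genes passed, as did 0 of all 22426 genes (0% of all genes). At an unadjusted p under 0.05 there was 1 of the 8, IKBKE, against 14.3% of all genes. With the intensity trend 1 of the 8 passed, against 3.86% of all genes.

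CHUK and MAP3K14 had higher mean signals with p65 shRNA, without passing the test and with limma intervals that include 0. CHUK was 6.02 and 6.31 with the control and 6.50 and 6.58 with p65 shRNA, a difference of 0.38 (SE 0.187, limma adjusted p = 0.441) that was 0.23 without control replicate 1. MAP3K14 was 5.76 and 5.79 with the control and 6.24 and 6.08 with p65 shRNA, a difference of 0.38 (SE 0.17, limma adjusted p = 0.394). In both genes the p65 arrays lay above the control arrays, and in 6 of the 8 genes the p65 and control arrays did not overlap, as in 46% of all genes. IL1R1 was 6.38 and 5.96 with the control and 5.71 and 5.90 with p65 shRNA, a difference of -0.37 (SE 0.215, limma adjusted p = 0.509) with a wide spread between the controls, and -0.16 without control replicate 1 or -0.58 without control replicate 2.

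IKBKB was 4.87 and 4.77 with the control and 4.30 and 4.66 with p65 shRNA, a difference of -0.34 (SE 0.199, limma adjusted p = 0.513) that was -0.16 without p65 replicate 1 and -0.52 without p65 replicate 2. TNFRSF1A was 7.043 and 7.0004 against 6.71 and 6.84, a difference of -0.25 (SE 0.169, limma adjusted p = 0.571). For these receptor and kinase genes the p65 arrays were the lower ones, with limma intervals that include 0. The groups overlapped for IKBKG, at 3.19 and 3.45 against 3.22 and 3.17 (difference -0.12), and for TBK1, at 5.51 and 5.68 against 5.85 and 5.40 (difference 0.03).

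Set beside the ZHX2 changes, the 4 genes called there had the same sign after p65 knockdown, and their p65 and control arrays did not overlap. CHUK stood at 0.78 and 0.38, MAP3K14 at 0.53 and 0.38, IKBKE at -0.54 and -0.98, and IL1R1 at -1.22 and -0.37. Of all 4102 genes called after ZHX2 knockdown, 1892 (46.1%) had the same sign in the p65 table, and 1054 (25.7%) also had arrays that did not overlap. Whether the control shRNA is the scrambled one is not stated, and the comparison across tables was not tested. The list that holds these 4 genes was chosen with earlier results of these data known.

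Among other genes upstream of NF-kB a few adaptors, receptors and kinases changed. In 3 lists by role, 49 of 54 genes had a named probe set, and with both ZHX2 hairpins averaged 4 rose and 5 fell by limma (18.4%, against 18.3% of all genes), a share near the background. Among 13 further receptors 1 rose and 1 fell, with a median change of -0.02. TNFRSF11A, which encodes RANK, the receptor for the osteoclast factor RANKL, rose by 0.68 (SE 0.0851, limma adjusted p = 0.006), from a mean of 7.74 to 8.42. TLR3, which senses double-stranded RNA in endosomes, was lower: it fell by 0.48 (SE 0.0927, limma adjusted p = 0.0201), from 7.08 to 6.61, and its call was kept in only 1 of 6 fits with an array left out (adjusted p from 0.0338 to 0.0665). TLR3 passed with hairpin 45 alone (-0.70, limma adjusted p = 0.00981) and not with hairpin 44 (-0.26, limma adjusted p = 0.211), while TNFRSF11A passed with each.

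Among 19 adaptors and ubiquitin-chain enzymes 1 rose and 2 fell, with a median of 0.01. UBE2N, the ubiquitin-conjugating enzyme that builds the K63-linked chains used in this pathway, rose by 0.49 (SE 0.117, limma adjusted p = 0.0373), and lost its call with any single array left out (adjusted p from 0.0515 to 0.177). CARD10, a scaffold of the CARD-BCL10-MALT1 complex, fell by 0.47 (SE 0.0737, limma adjusted p = 0.0112). RBCK1, which encodes the HOIL-1 subunit of the linear ubiquitin ligase, fell by 0.31 (SE 0.0682, limma adjusted p = 0.0288), a call kept in 1 of 6 omissions (adjusted p from 0.0428 to 0.111). With hairpin 44 alone 0 of the 19 passed, against 7.65% of all genes. At an unadjusted p under 0.05 were 4 of the 19, against 5488 of all 22426 genes. With an intensity trend 3 passed, against 3941 of all genes. CARD10 was at -0.31 and RBCK1 at -0.16 with hairpin 44, against -0.62 and -0.46 with hairpin 45, where both passed. UBE2N was at 0.47 with hairpin 44 and 0.51 with hairpin 45, of which the second passed.

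Among 17 other kinases and kinase partners 2 rose and 2 fell, with a median of -0.06. HSP90AA1, a chaperone of the IKK complex, rose by 0.56 (SE 0.0658, limma adjusted p = 0.00518), and IRAK1, the kinase recruited to the interleukin-1 receptor through MYD88, rose by 0.45 (SE 0.0621, limma adjusted p = 0.00804). Both calls were kept in all 6 omissions. TANK, a scaffold bound by TBK1 and IKBKE, fell by 0.32 (SE 0.0604, limma adjusted p = 0.0191), and was called in 1 of 6 omissions (adjusted p from 0.0492 to 0.0728). MAP3K8, the kinase also called TPL2 that acts on the MAP kinase pathway downstream of IKK, fell by 0.61 (SE 0.139, limma adjusted p = 0.0329), and was called in 2 of 6 omissions (adjusted p from 0.0284 to 0.152). HSP90AA1, IRAK1 and TANK passed with each hairpin alone, and MAP3K8 with hairpin 45 (-0.76) but not with hairpin 44 (-0.45, limma adjusted p = 0.155). MAP3K8 has 2 probe sets, and these values are from 16703659, the one with the higher mean in the ZHX2 table. The change of the other, 16703642, is not given here, and in the p65 table that one had the higher mean and was used.

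**Figure D4:**
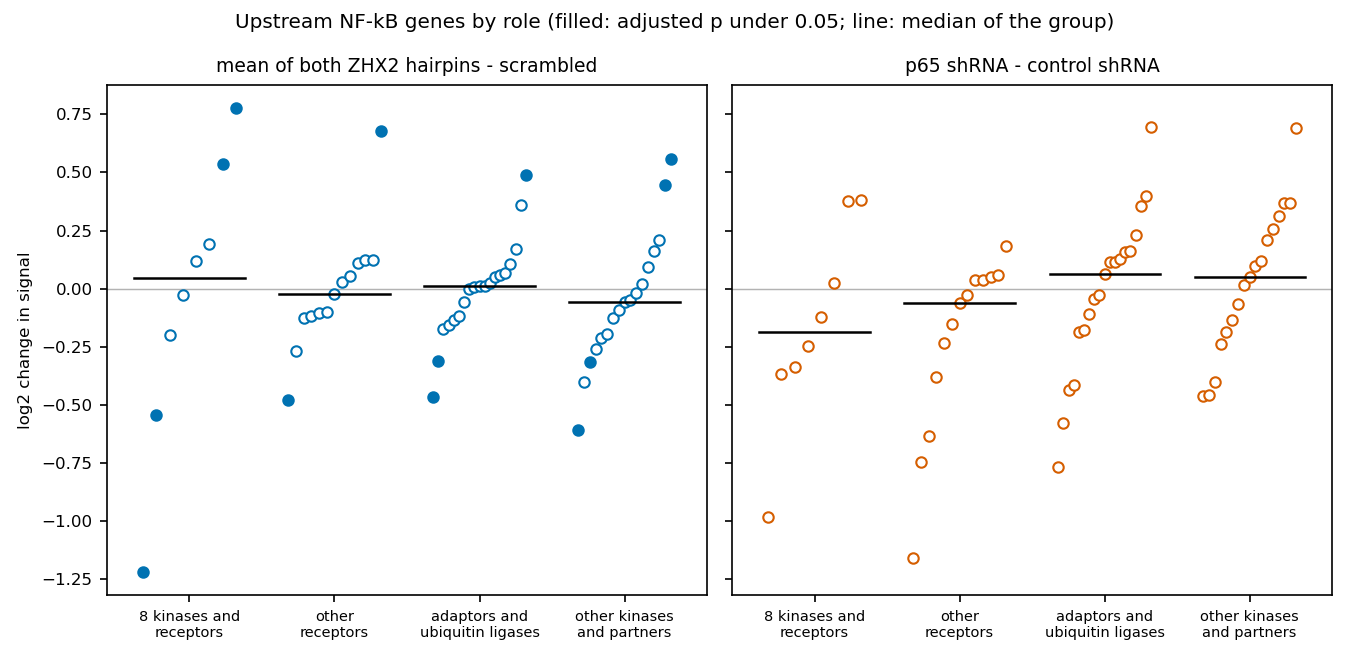
Log2 change in signal (vertical axis) of the 8 kinases and receptors and of the 3 lists of other upstream genes, for the mean of both ZHX2 hairpins (left) and for p65 shRNA (right), each gene 1 point, sorted within its list. Filled points passed a limma adjusted p under 0.05 and lines are medians. For MAP3K8 and IRAK3 the left and right panels use different probe sets. Most of the other genes lie close to 0 on the left, with 4 filled above and 5 filled below.

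With p65 shRNA, 0 of the 49 passed limma (6 at an unadjusted p under 0.05, against 14.3% of all genes), and 1 passed with an intensity trend (against 3.86% of all genes), so neither count was above the share of all genes. The gene called with the trend was RIPK2, the kinase downstream of the NOD receptors, at 0.69 (SE 0.182, limma adjusted p = 0.206; with the trend 0.0241). The gene of smallest p in the receptor list was IL1R2, the decoy receptor for interleukin-1, at -1.16 (SE 0.382, limma adjusted p = 0.279), and from -1.72 to -0.60 with 1 array left out. IL1R2 was dim, with a mean of 3.20 (SD 0.793, n = 2) with the control and 2.04 with p65 shRNA. The array medians were 1.87 to 1.89. In the adaptor list the gene of smallest p was TRAF1, at -0.77 (SE 0.211, limma adjusted p = 0.219). With both ZHX2 hairpins averaged, RIPK2 stood at -0.21, IL1R2 at -0.27 and TRAF1 at -0.0015, and none of the 3 passed without the trend, while RIPK2 passed as lower with it (limma adjusted p = 0.02). Hairpin 45 alone lowered RIPK2 by -0.36 (limma adjusted p = 0.046) and IL1R2 by -0.42 (limma adjusted p = 0.045), and hairpin 44 gave -0.06 and -0.12, which did not pass.

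The genes whose signals were closest to each called gene were found over the 6 ZHX2 arrays, as the root mean square difference of signals centred on the scrambled mean, among 20194 genes. For CHUK they were ALG1, SNHG5 and FKBP14, at differences of 0.0435, 0.0475 and 0.0478 log2 units. For MAP3K14 they were FANCI, NFE2L3 and ASB13, from 0.0578 to 0.068. IKBKE was closest to TRIM38 (0.0227), FAM117B (0.03) and TNS3 (0.0306), and IL1R1 to CYP3A5 (0.0773), RARRES2 (0.0993) and YPEL2 (0.104). Such closeness describes 6 arrays only.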

How the data were processed

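Signals came from 10 Affymetrix arrays of total RNA. Per the submitters' processing notes, the authors deposited RMA log2 signals (background correction, normalization and a summary per probe set). The software and build were not given in the sources used here. Both tables held 53617 probe sets, of which 24471 were named with 1 gene by joining the 2 platform annotations. The RefSeq gene table (GRCh38.p14) served to update 653 names. Where a gene had several probe sets, the one with the highest mean in the table was used.

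Group means were fitted with limma 3.58.1 in R 4.3.3, all 6 ZHX2 arrays together (3 residual degrees of freedom) and the 4 p65 arrays apart (2), without an intensity trend and without a filter. Calls required an adjusted p (Benjamini-Hochberg, all 22426 genes) under 0.05. Errors of changes are moderated standard errors. The fit was also run on simulated data with 200 genes changed and noise drawn independently for each array. The outcome is not reported here and lends the calls no support.

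The listed genes were all given. Of the other lists, up to 4 called genes per direction with the smallest p were named for ZHX2 and up to 2 for p65. For p65, where limma made no call, the intensity-trend calls or the smallest p were used. The genes and lists were chosen with earlier results of these data known. The kinase-pair comparison and the motifs were added after the data were seen.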

Additional observations from a re-analysis of the deposited data

How the results depend on the processing

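Over both hairpins the count of 4 called genes stood at 2 (CHUK and IL1R1) with a 1.5-fold minimum, and ran from 3 to 4 with 1 array left out, where calls over all genes ran from 1788 to 3340 against 4102. For hairpin 44 alone it was 2 with the replicate block, 1 when only the groups compared were fitted, and 0 to 1 with 1 array left out. Calls over all genes fell under the same settings, from 1716 to 820, 575 and, with 1 array left out, 3 to 595. For hairpin 45 alone it ran from 3 to 4 with 1 array left out. Between the hairpins and for p65 it rose from 0 to 2 and from 0 to 1 with an intensity trend. The other upstream genes stood at 9 called over both hairpins, 2 with a 1.5-fold minimum, 5 when only the groups compared were fitted and 4 to 6 with 1 array left out, and for p65 at 1 with an intensity trend. These other upstream genes numbered 49. Calls over all 22426 genes fell too, from 4102 to 2802 over both hairpins when only the groups compared were fitted. The all-gene range with 1 array left out is given above. No all-gene count with the 1.5-fold minimum is given here, so those falls have no background beside them. The causes were not tested.

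Signs turned only in changes that never passed. TBK1 turned to 0.014 over both hairpins and 0.043 with hairpin 45 after median centring, and to -0.0042 between the hairpins after quantile normalization, as did IKBKB there (-0.0091). With 1 array left out, TBK1 ran from -0.068 to 0.011 over both hairpins, from -0.0497 to 0.029 with hairpin 45 and from -0.20 to 0.25 with p65. IKBKG ran from -0.016 to 0.16 with hairpin 44 and from -0.26 to 0.0098 with p65, and TNFRSF1A from -0.0798 to 0.0094 between the hairpins. For p65, CHUK ran from 0.23 to 0.52, IKBKB from -0.52 to -0.16 and IL1R1 from -0.58 to -0.16, none called.

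Array deviations with the same replicate number correlated with r from -0.026 to 0.055, so no shared effect of the number was seen. Whether arrays of the same number were handled together is not stated. With the replicate block IKBKE and MAP3K14 lost their hairpin 44 calls (limma adjusted p = 0.0562 and 0.0533) and MAP3K14 its hairpin 45 call (0.0594). MAP3K14 with hairpin 45 also missed the threshold after quantile normalization (0.0556).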
